A study of Homo sapiens with 24 samples.

Results

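The comparison described here asks whether 2 osteosarcoma cell lines answered the same low dose of a CDK7 inhibitor differently. It was made on 12 of the 24 arrays of the study. The lines are U2-OS and SJSA-1, long-established cultures from human osteosarcoma. Cells of each were kept for 6 h with either 25 nM THZ2 or the solvent DMSO alone, and each of the 4 groups has 3 arrays. The labels name no other agent in these groups. With 1 line on each side, whatever else differs between these lines cannot be told apart from the line itself. The line difference of a gene is its change with 25 nM in SJSA-1 minus its change with 25 nM in U2-OS, so a negative value means that the gene came out lower in SJSA-1 relative to its own control. SJSA-1 carries an amplification of chromosome 12q with MDM2 and CDK4. The labels do not say whether the 3 arrays of a group came from separate cultures, so the p-values measure the spread between these samples, which may be technical.

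THZ2 binds CDK7 covalently. CDK7, with cyclin H (CCNH) and MNAT1, forms the kinase part of the general transcription factor TFIIH, which phosphorylates the tail of RNA polymerase II as transcription starts, and it also activates the kinases of the cell cycle. Inhibitors of CDK7 lower many short-lived transcripts first, and cells differ in how much inhibitor they tolerate.

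RNA was read on Affymetrix PrimeView arrays, and the deposited values are linear intensities per probe set. Array medians lay at intensities of 34.1 to 34.8 for U2-OS and 25.5 to 26.2 for SJSA-1. Between 3.44% and 5.47% of probe sets held identical values in a pair of U2-OS arrays and between 1.75% and 3.1% in a pair of SJSA-1 arrays, against at most 0.00203% between the lines, where identical means exactly equal. Once taken to log2, 100% of SJSA-1 values and 3.75% of U2-OS values were whole hundredths, within 0.02 of a hundredth. The 2 lines were therefore taken as normalized apart, and apart from the check of the labels that follows, levels are compared within a line. For that check, MDM2 had a mean of 87.1 in U2-OS with DMSO and 835 in SJSA-1, and CDK4 had 1231 and 7547. Of 10 mesenchymal and osteosarcoma markers, 8 lay above the floor of 12.73, the 30th percentile of all values, in U2-OS and 9 in SJSA-1. The label protocols disagree on the extraction, and 1 of them names another tissue. The 7 nervous tissue markers on the array summed to 217 to 238 in the 6 U2-OS arrays and 135 to 166 in the 6 SJSA-1 arrays, and 5 and 4 of them lay above the floor. The 6 blood markers summed to at most 155 and the 6 epithelial markers to at most 292, against at least 11080 for the mesenchymal list, and no marker had a line difference. The part of those markers in the results was not tested.

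Of 16175 genes tested, 177 had a line difference at 25 nM (1.09%, limma with Benjamini-Hochberg adjustment, adjusted p under 0.05). In 148 of them the change was lower in SJSA-1 (0.915% of genes) and in 29 it was higher (0.179%). Below, "rose" and "fell" are kept for genes that passed the same threshold within a line in the model of all 24 arrays. By that measure 1335 genes passed in SJSA-1 (8.25%), of which 319 rose (1.97%) and 1016 fell (6.28%). In U2-OS 13 passed (0.0804%), of which 4 rose (0.0247%) and 9 fell (0.0556%). Most of the 177 were genes that fell in SJSA-1: 143 fell there and did not pass in U2-OS, and 3 fell in both lines and by more in SJSA-1. Another 26 rose in SJSA-1 and did not pass in U2-OS. The remaining 5 passed in U2-OS and not in SJSA-1, 2 as rises and 3 as falls, and no gene passed in opposite directions.

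The differences were mostly of moderate size. On the scale of the model, log2 of the intensity plus 16, the median line difference was -0.547 over the 148 lower genes, whose median change was -0.0556 in U2-OS and -0.598 in SJSA-1. Over the 29 higher genes it was 0.575, with median changes of 0.0524 and 0.707. These medians describe genes chosen for their difference and support nothing further. The median over all genes tested was 0.0101. The smallest line difference that passed was 0.208, and 3 genes passed with a difference of at least 2-fold upwards and 2 downwards. Without adjustment, 1459 genes had a p under 0.05.

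**Figure D1:**
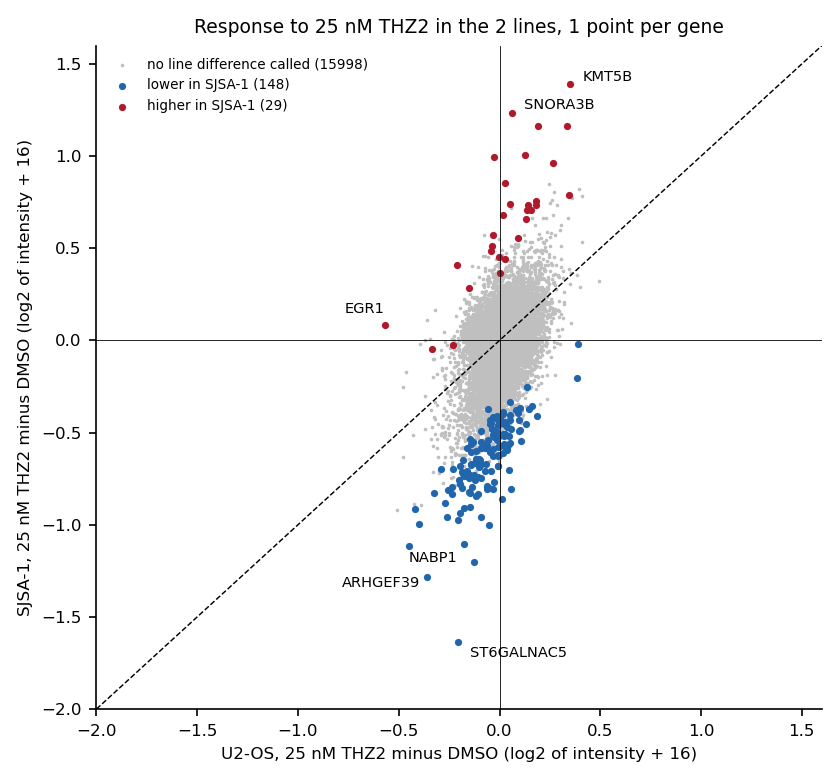
Change with 25 nM THZ2 against DMSO in U2-OS (x axis) and in SJSA-1 (y axis), both on the log2 scale of the intensity plus 16, with 1 point for each of the 16175 genes. Blue points are the 148 genes lower in SJSA-1 and red points the 29 higher, the dashed line marks equal changes, and most blue points lie near 0 on the U2-OS axis and below it on the SJSA-1 axis.

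The 2 lines differed in how closely their arrays repeated. Over genes, the SD of an array's deviations from its group means was 0.043 to 0.0527 for U2-OS arrays and 0.0612 to 0.138 for SJSA-1 arrays. The model of all arrays uses a spread shared by both lines, so counts within a line depend on it. With each line fitted by itself on its 6 arrays, 811 genes passed in U2-OS (489 rises, 322 falls) and 539 in SJSA-1 (114 rises, 425 falls). The median SE was 0.0431 in the U2-OS fit and 0.105 in the SJSA-1 fit, so smaller changes could pass in U2-OS. A passing change had a median size of 0.199 for U2-OS and 0.522 for SJSA-1. These medians depend on that SE and do not compare the sizes of the responses. With a change of 1.5-fold or more, 174 SJSA-1 genes but 0 U2-OS genes passed. The smaller SE in U2-OS does not keep such changes from passing, while the larger SE in SJSA-1 can add to the 174. In those separate fits 118 genes fell in both lines, 51 rose in both and 0 moved in opposite directions. Of the 148 genes with a lower line difference, 135 fell in SJSA-1 fitted by itself and 27 also fell in U2-OS fitted by itself. Another 2 of the 148 rose in U2-OS fitted by itself, and 11 passed in neither fit. Of the 29 higher genes, 24 rose in SJSA-1 fitted by itself, 7 also rose in U2-OS, 4 fell in U2-OS, and 1 passed in neither fit. Where a gene moved the same way in both fits, its line difference is one of size.

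The count of 177 changed when 1 array was left out, by about as much for each U2-OS array and unevenly for the SJSA-1 arrays. Leaving out 1 of the 12 arrays at a time, the count was 81 to 85 without a U2-OS DMSO array and 80 to 87 without a U2-OS array with 25 nM. Without SJSA-1 DMSO replicates 1, 2 and 3 it was 323, 82 and 145. Without SJSA-1 25 nM replicates 1, 2 and 3 it was 163, 113 and 84. All 177 genes kept their sign in the 12 fits, and 58 of them, 47 lower and 11 higher, passed in every one of the 12. The 177 were chosen on these same arrays, so the kept signs follow largely from that choice and are no support. Centring the arrays on the poly-A spike-ins, which ran from 6.74 to 7.39 (log2) in SJSA-1 and from 5.99 to 6.06 in U2-OS, left 0 line differences by limma, with 29 genes at an unadjusted p under 0.05.

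**Figure D2:**
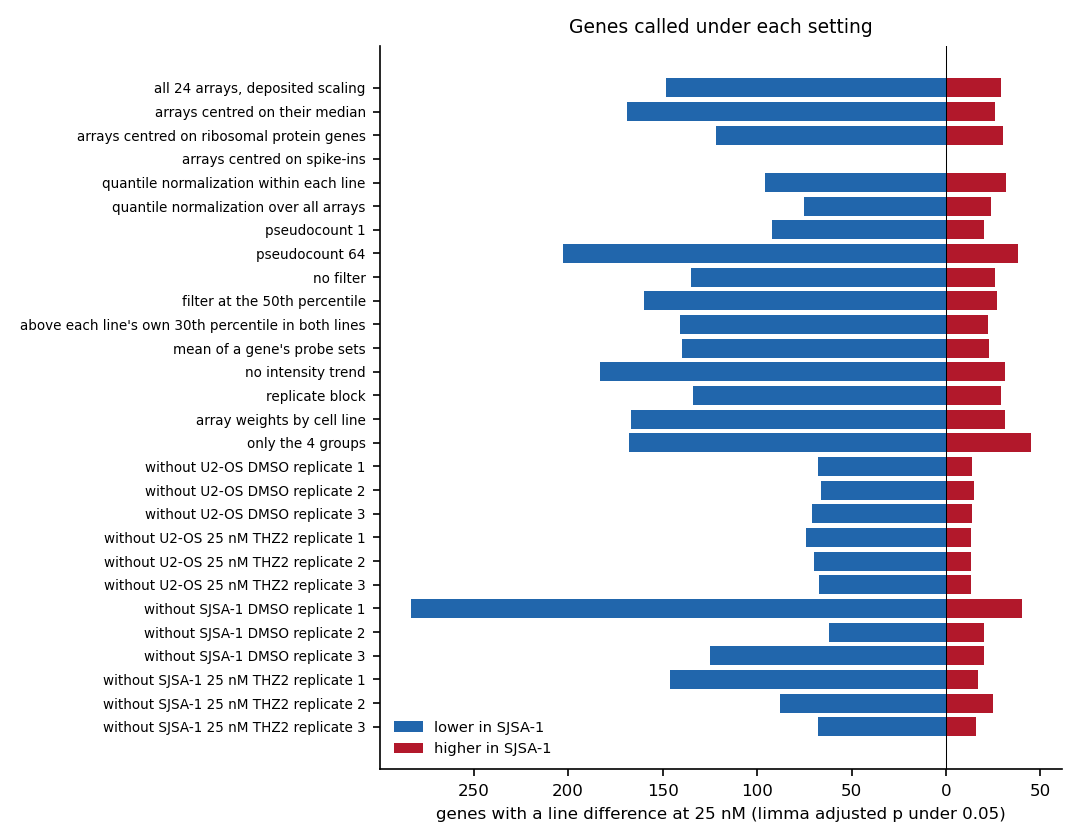
Number of genes with a line difference at 25 nM that were lower in SJSA-1 (blue, to the left of 0) or higher (red, to the right) under each setting of the analysis. The 12 bars at the bottom leave out 1 array each and range from 80 to 323 genes in all, and centring on the spike-ins gives 0.

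Among the genes lower in SJSA-1, ST6GALNAC5, a sialyltransferase that adds sialic acid to gangliosides, had the largest difference. Its intensity in the SJSA-1 arrays was 62.3, 47.5 and 63.1 with DMSO and 7.73, 5.32 and 9.92 with 25 nM. In U2-OS it was 646, 693 and 683 with DMSO and 589, 582 and 572 with 25 nM. The groups did not overlap in either line, but the drop was at least 4.53-fold in SJSA-1, where the treated arrays lay under the floor, and 1.16-fold in U2-OS. The line difference was -1.43 ± 0.13 (SE, n = 3 arrays per group, limma adjusted p = 4.59e-07), and all 5 probe sets of the gene had the same sign. In U2-OS fitted by itself the small drop also passed (limma adjusted p = 0.0065).

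NABP1, a single-stranded DNA-binding protein of the SOSS complex that acts at DNA breaks, followed at -1.07 ± 0.13. It read 258, 242 and 290 in SJSA-1 with DMSO and 114, 89.9 and 113 with 25 nM, a 2.49-fold drop. In U2-OS it read 181, 193 and 175 with DMSO and 168, 163 and 166 with 25 nM, so the U2-OS groups lay close together without overlapping and those of SJSA-1 far apart. The U2-OS change was 1.10-fold and did not pass in either fit.

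The sequence just upstream of the listed RefSeq start is shown for these 2 genes and for USP45, a gene higher in SJSA-1, as examples picked after their values were seen. Each is 120 bases on GRCh38.p14, written 5′ to 3′ along the gene's strand, with a GC box (GGGCGG, searched on both strands) in capitals.
ST6GALNAC5, chr1:76867360-76867479, plus strand: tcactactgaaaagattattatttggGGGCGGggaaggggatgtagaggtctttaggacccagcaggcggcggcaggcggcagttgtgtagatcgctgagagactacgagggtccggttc
NABP1, chr2:191678016-191678135, plus strand: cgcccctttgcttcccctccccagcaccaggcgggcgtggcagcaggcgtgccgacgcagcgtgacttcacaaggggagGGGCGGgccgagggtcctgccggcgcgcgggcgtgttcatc
USP45, chr6:99515424-99515543, minus strand: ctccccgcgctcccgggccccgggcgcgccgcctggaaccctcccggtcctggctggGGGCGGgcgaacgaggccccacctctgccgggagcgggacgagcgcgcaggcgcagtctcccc
A GC box occurs in windows of both directions of response. In windows of 300 bases around the start it was found in 64.2% of the 120 lower genes that had an entry, out of 148, and in 44.6% of all 27305 promoters of the table, which also holds genes that were not tested here. A match describes the letters and is no evidence of a bound site. It was also found in 77.8% of the 18 higher genes that had an entry, out of 29, too few matched for that share to serve as a check.

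MOCS3, which activates sulfur carriers for molybdenum cofactor and transfer RNA modification, read 162, 176 and 186 in SJSA-1 with DMSO and 73.0, 60.1 and 86.2 with 25 nM. In U2-OS the DMSO arrays read 43.9, 43.1 and 53.8 and the treated arrays 44.1, 33.5 and 41.4. The U2-OS groups overlapped and the SJSA-1 groups did not, and the line difference was -0.93 ± 0.15. LIAT1, a ligand of the arginyltransferase ATE1, fell 2.46-fold in SJSA-1, from 81.6, 97.7 and 81.6 to 36.3, 35.8 and 33.8. Its U2-OS arrays stayed between 24.1 and 27.4 in both groups, and the line difference was -0.95 ± 0.11. A 2.46-fold fall from that U2-OS level would have ended under the floor and could not have been read in full.

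ARHGEF39 was lower with 25 nM in both lines. It read 68.1, 84.5 and 87.4 in SJSA-1 with DMSO and 23.3, 22.3 and 24.1 with 25 nM, a 3.45-fold drop. The U2-OS arrays gave 66.6, 66.5 and 61.6 against 47.2, 47.2 and 46.5, a 1.38-fold drop that passed in U2-OS fitted by itself (limma adjusted p = 0.00168) and not in the model of all arrays (limma adjusted p = 0.201). In each line the groups did not overlap, and the difference in size was -0.92 ± 0.13. NLRC5, a regulator of MHC class I genes, read 67.7, 71.5 and 82.7 in SJSA-1 with DMSO and 34.3, 28.3 and 28.4 with 25 nM. Its U2-OS arrays gave 23.5, 23.5 and 28.0 against 22.3, 22.6 and 22.3, lower without overlap but without passing in either fit. From that U2-OS level a fall as large as in SJSA-1 would have ended under the floor. OXTR, the oxytocin receptor, fell at least 2.46-fold in SJSA-1, from 37.0, 30.9 and 29.2 to 14, 9.71 and 11.2, while its U2-OS groups overlapped between 13.6 and 16.7. Those U2-OS values lay just above the floor of 12.73, so a fall could hardly have been read there. The line difference was -0.86 ± 0.10 for NLRC5 and -0.86 ± 0.11 for OXTR. TMEM242, an assembly factor of the mitochondrial ATP synthase, differed by -0.87 ± 0.12, MPI, the mannose phosphate isomerase, by -0.77 ± 0.14, and DET1, a subunit of a ubiquitin ligase, by -0.77 ± 0.10. The U2-OS drop of DET1 passed in that line fitted by itself (limma adjusted p = 0.0344). These 10 genes passed in each of the 12 fits that left out 1 array.

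**Figure D3:**
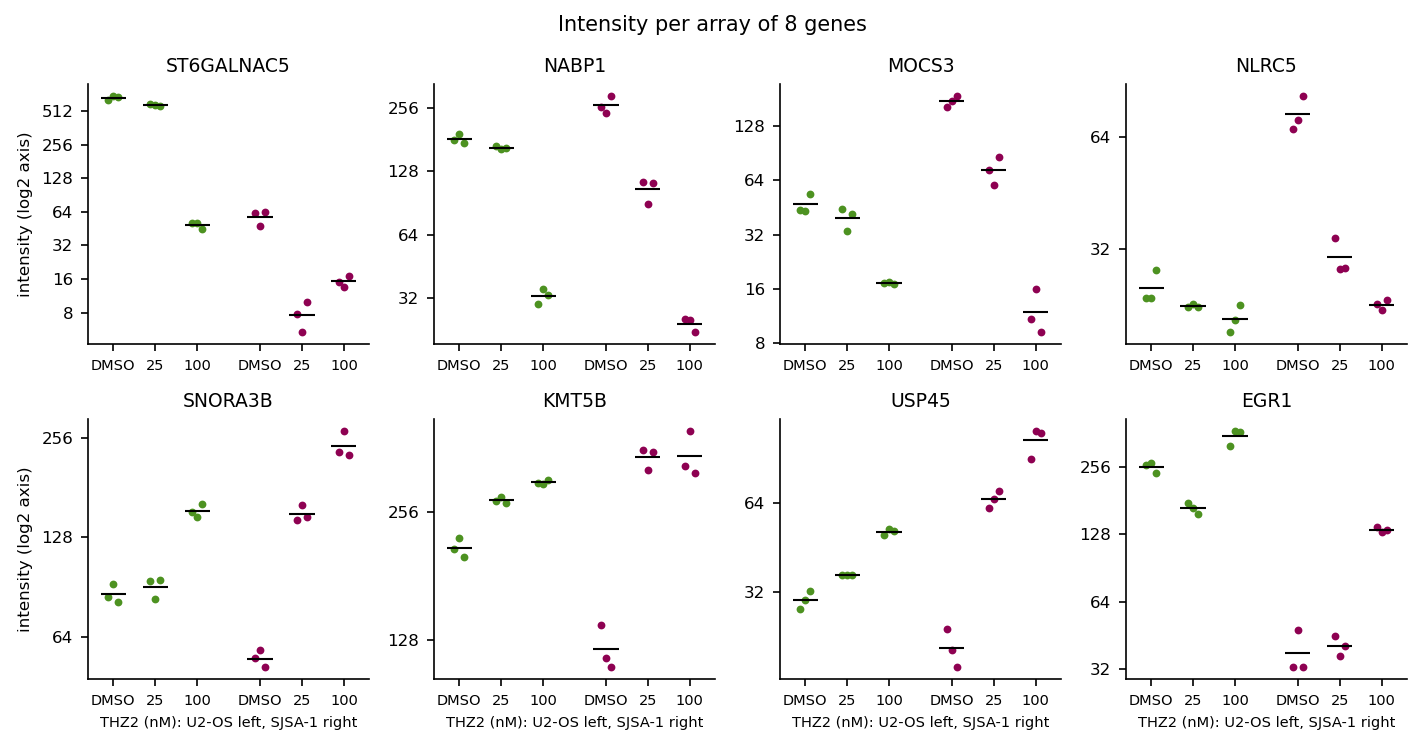
Intensity of 8 genes in each array, on a log2 axis, with DMSO, 25 and 100 nM THZ2, for U2-OS (green, left in each panel) and SJSA-1 (purple, right), with a bar at each group's mean. At 25 nM the upper 4 genes drop in SJSA-1 with little movement in U2-OS, SNORA3B, KMT5B and USP45 climb more in SJSA-1, and EGR1 drops in U2-OS, with levels to be compared within a line.

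Among the genes higher in SJSA-1, small nucleolar RNAs, which guide chemical changes of ribosomal RNA, held 2 of the 3 largest differences. SNORA3B read 55.0, 58.1 and 51.6 in SJSA-1 with DMSO and 144, 161 and 147 with 25 nM, a 2.74-fold rise. Its U2-OS arrays gave 84.4, 92.4 and 81.7 against 94.3, 82.9 and 94.9, groups that overlapped. The line difference was 1.17 ± 0.12 (limma adjusted p = 3.49e-06). SNORA26 rose 2.22-fold in SJSA-1, from 43.1, 74.0 and 71.0 to 118, 153 and 146, and its U2-OS groups overlapped between 82.2 and 96.1. Its difference was 1.02 ± 0.19. A probe set for a small RNA that lies inside a host gene can also capture the host's unspliced RNA, and this was not tested.

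USP45, a ubiquitin-specific protease, rose 3.19-fold in SJSA-1, from 23.9, 20.4 and 17.8 to 61.4, 65.8 and 70.5. The U2-OS arrays lay between 27.9 and 32.2 with DMSO and at 36.6 in each treated array, a 1.22-fold increase that passed in U2-OS fitted by itself (limma adjusted p = 0.0282) and not in the model of all arrays. The line difference was 0.97 ± 0.13, and 2 of its 3 probe sets had that sign. ADAMTS16, a secreted metalloprotease, read 11.4, 13.6 and 12.8 in SJSA-1 with DMSO, near the floor, and 55.7, 41.6 and 47.2 with 25 nM, at least 3.70-fold more. In U2-OS it read 27.2, 27.6 and 27.3 against 35.3, 36.9 and 44.2, so the groups did not overlap there either. That increase passed in U2-OS fitted by itself (limma adjusted p = 0.0065), and the line difference was 0.83 ± 0.12. ANKRD36, an ankyrin repeat gene, rose 2.77-fold in SJSA-1 against 1.16-fold in U2-OS, where the groups overlapped.

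KMT5B, which methylates histone H4 at lysine 20, rose 2.82-fold in SJSA-1 by its brightest probe set, from 139, 116 and 111 to 357, 322 and 355. The U2-OS arrays read 210, 222 and 201 against 272, 278 and 269, an increase that passed in U2-OS fitted by itself (limma adjusted p = 0.00131). The line difference was 1.04 ± 0.13. No more than 2 of its 6 probe sets had that sign, and with the mean of its probe sets the value shrank to 0.17. The same caution holds for VPS50, a tethering factor of endosome recycling, at 0.83 ± 0.16 with 2 of 4 probe sets, and for GDAP2, at 0.69 ± 0.14 with 1 of 3, whose call was lost without SJSA-1 DMSO replicate 2 (limma adjusted p from 0.00292 to 0.054 over the 12 fits). NDST1, which sulfates heparan sulfate, also passed as an increase in U2-OS fitted by itself (limma adjusted p = 0.0112). It had a line difference of 0.70 ± 0.16 with 3 of 4 probe sets. It lost its call without any of 6 arrays, U2-OS DMSO replicates 1 and 3 and replicates 2 and 3 with 25 nM in either line, with a limma adjusted p of up to 0.0774.

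A few genes passed in U2-OS and not in SJSA-1. EGR1, an immediate early transcription factor, read 261, 265 and 240 in U2-OS with DMSO and 176, 168 and 158 with 25 nM, a 1.53-fold fall without overlap. In SJSA-1 it read 32.9, 47.8 and 32.7 against 45.3, 36.5 and 40.5, with overlapping groups. The line difference was 0.65 ± 0.15 with the same sign in all 6 probe sets. It passed in just 3 of the 12 fits that left out an array. In SJSA-1 these omitted the first or second DMSO array or the second array with 25 nM, and its limma adjusted p reached 0.102. XYLT1, which starts the glycosaminoglycan chains of proteoglycans, fell from 25.8 ± 3.05 to 17.1 ± 0.96 (SD, n = 3) in U2-OS, and STON1, an endocytosis adaptor, fell from 23.2 ± 0.87 to 17.4 ± 0.90. In SJSA-1 both lay under the floor in both groups, so that no change there could have been read, and each passed in 4 of the 12 fits. ACOX3, a peroxisomal oxidase of branched fatty acids, rose from 29.3 ± 1.22 to 43.3 ± 4.35 in U2-OS and read 24.2 ± 0.69 against 18.9 ± 1.63 in SJSA-1, a difference of -0.59 ± 0.10 that passed in every one of the 12 fits. CRISPLD1, a secreted protein, rose in U2-OS from 51.4 ± 5.51 to 72.3 ± 6.93 and lay under the floor in SJSA-1. Its line difference of -0.41 ± 0.10 passed in 2 of the 12 fits, which omitted the second U2-OS array with DMSO or with 25 nM, and its limma adjusted p reached 0.181.

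The genes that passed in both lines moved the same way. ASF1B, a histone chaperone of replicating cells, read 111, 106 and 102 in U2-OS with DMSO and 75.1, 71.0 and 75.1 with 25 nM. In SJSA-1 it read 309, 347 and 372 against 155, 137 and 157. The groups were apart in both lines, and the fall was larger in SJSA-1 by 0.67 ± 0.12. SSU72, a phosphatase of the RNA polymerase II tail, fell by 0.42 (U2-OS) and by 0.91 (SJSA-1), and its difference of -0.50 ± 0.11 passed in 3 of the 12 fits, with 3 of 6 probe sets agreeing. SLC46A1, the proton-coupled folate transporter, fell by 0.29 and 0.70, a difference of -0.41 ± 0.08. KRCC1 fell by 0.51 and 0.92, but its line difference did not pass (-0.41, 95% interval -0.638 to -0.190, limma adjusted p = 0.062). CARD8, a sensor of the inflammasome, rose by 0.50 (U2-OS) and 0.32 (SJSA-1), without a line difference that passed (interval -0.425 to 0.078).

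Beyond single genes, the responses of the 2 lines shared a direction, although the lines share no arrays in this comparison. The 1016 genes that fell in SJSA-1 had a median change of -0.396 there and of -0.0678 in U2-OS, and 809 of them (79.6%) were below 0 in U2-OS, against 51.4% of all genes tested. Among the 139 that fell by 1.5-fold or more on the scale of the model, the U2-OS median was -0.146 and 131 (94.2%) were below 0. The 319 genes that rose in SJSA-1 had a U2-OS median of 0.117, and 268 (84%) were above 0, against 48.6% of all genes. Of the 35 that rose by 1.5-fold or more on that scale, 34 were above 0 in U2-OS, with a median of 0.228. Across the 16175 genes the changes in the 2 lines had a Pearson r of 0.393 and a Spearman rank correlation of 0.264. Genes are not independent replicates, and each line's own DMSO arrays enter all of its values. The genes were chosen by their SJSA-1 change, so its size is not set against that in U2-OS.

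**Figure D4:**
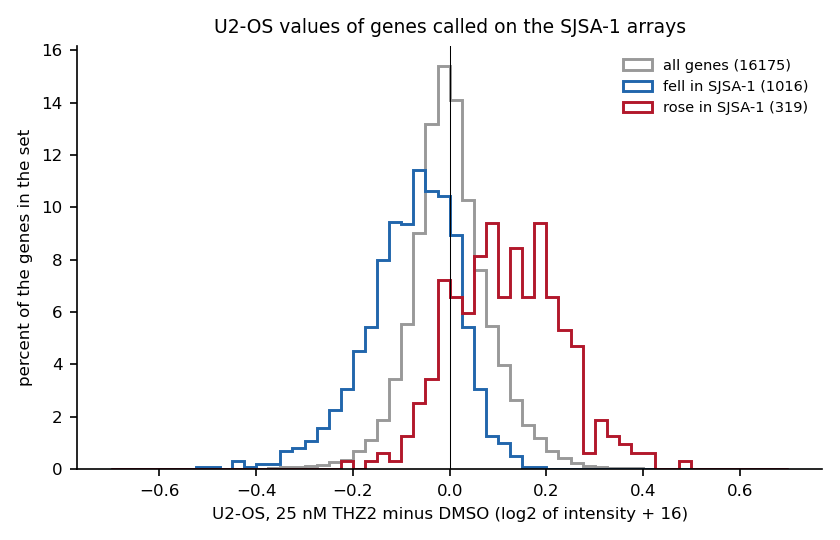
Distribution of the change with 25 nM THZ2 in U2-OS (log2 of the intensity plus 16) for the 1016 genes that fell in SJSA-1 (blue), the 319 that rose there (red) and all 16175 genes (grey), as percent of each set. The blue set lies to the left of 0, with a median of -0.0678, and the red set to the right, with a median of 0.117.

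The target of the drug and its partners had no line difference that passed. CDK7 read 528, 565 and 549 in U2-OS with DMSO and 549, 587 and 583 with 25 nM, and 471, 419 and 481 against 519, 523 and 465 in SJSA-1. The groups overlapped in both lines, and the line difference was 0.07 (95% interval -0.225 to 0.362). The intervals were -0.238 to 0.400 for CCNH and -0.191 to 0.312 for MNAT1, and changes outside them are not covered. The list of polymerase tail kinases, TFIIH and the Mediator kinase module had 26 tested genes. Of them 3 (11.5%) rose and 1 (3.85%) fell in SJSA-1, against 1.97% and 6.28% of all genes tested. A line difference passed for 1 of them, against 1.09% of all genes. CDK12, which acts on elongating polymerase, rose by 0.37 in SJSA-1, and its U2-OS value was 0.36, which did not pass in the model of all arrays (line difference 0.01, interval -0.265 to 0.286). HEXIM1, the inhibitor of the elongation kinase P-TEFb, rose by 0.77 in SJSA-1, with 0.36 in U2-OS, and its line difference of 0.42 did not pass (interval 0.108 to 0.723, limma adjusted p = 0.271). POLR2A, the large subunit of the polymerase, rose by 0.45 in SJSA-1, with 0.27 in U2-OS. The member with a line difference was GTF2H1, a core subunit of TFIIH, which read 509, 419 and 407 in SJSA-1 with DMSO and 271, 298 and 261 with 25 nM. In U2-OS it read 350, 354 and 350 against 302, 340 and 327. All 8 probe sets gave the same sign, but the difference of -0.53 ± 0.13 passed in 2 of the 12 fits, which omitted the third DMSO array or the second array with 25 nM of SJSA-1, with a limma adjusted p of up to 0.135.

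Several genes known for their part in osteosarcoma or in cell death did not pass. MYC, which drives growth, read 796, 839 and 742 in U2-OS with DMSO and 733, 715 and 746 with 25 nM, and 28.8, 37.3 and 34.3 against 48.2, 34.1 and 43.1 in SJSA-1. Its line difference of 0.33 had an interval of 0.034 to 0.630 and a limma adjusted p of 0.457. For RUNX2, the master regulator of bone formation, the interval was -0.483 to 0.316. For MCL1, a short-lived survival protein of the BCL2 family, it was -0.320 to 0.494. MDM2 (-0.427 to 0.602), CDK4 (-0.169 to 0.163) and the p53 target CDKN1A (-0.119 to 0.504) did not pass either. CDK13, the relative of CDK12, had an interval of -0.244 to 0.323 and POLR2A one of -0.149 to 0.517. FADD, the adaptor of death receptors, fell in SJSA-1 by 0.74, from 1046, 1201 and 1361 to 714, 724 and 690. Its U2-OS arrays read 478, 472 and 462 against 403, 403 and 390, also without overlap, and the difference of -0.51 had an interval of -0.911 to -0.111 and did not pass (limma adjusted p = 0.33).

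Gene lists are given by counts and medians beside those of all genes tested. Of all genes, 6.28% fell and 1.97% rose in SJSA-1, and 1.09% had a line difference. The NF-kB target genes had the most negative median line difference of the lists, -0.231 over 25 tested genes, with a median change of 0.0157 in U2-OS and -0.219 in SJSA-1. Of them 6 (24%) fell in SJSA-1, 0 rose, and 2 had a line difference. IL1B, an inflammatory cytokine, read 228, 254 and 208 in SJSA-1 with DMSO and 145, 138 and 145 with 25 nM, and stayed between 26.9 and 29.3 in U2-OS. Its difference was -0.62 ± 0.13, and the call was lost without U2-OS DMSO replicate 3 or SJSA-1 DMSO replicate 2 (limma adjusted p of up to 0.0564). NFKB2, a subunit of NF-kB itself, differed by -0.53 ± 0.13 and passed in 1 of the 12 fits, that without SJSA-1 DMSO replicate 1. CXCL8 fell from 3817 to 3119 in SJSA-1 and IL6 from 92.9 to 64.7, and ICAM1 and CXCL3 fell as well, without a line difference. In U2-OS with DMSO, CXCL3 (6.71) and IL6 (11.95) lay under the floor, so no fall could have been read there. ICAM1 (30.4) was dim in U2-OS like IL1B, while CXCL8 (78.5) and NFKB2 (80.8) were brighter. The U2-OS median of the list is limited by such members. Of the blood markers, the monocyte gene CD14 fell in SJSA-1 from 33.0 to 25.3, and its part in the NF-kB list was not tested.

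The lists of DNA replication and repair had negative median line differences. Of 40 S phase genes, 7 fell in SJSA-1, 0 rose and 2 had a line difference, with a median difference of -0.13. GINS1, a subunit of the replicative helicase, read 695, 755 and 662 in SJSA-1 with DMSO and 410, 419 and 428 with 25 nM. In U2-OS it read 733, 784 and 755 against 670, 686 and 642, lower without overlap as well. That drop passed in U2-OS fitted by itself (limma adjusted p = 0.0156). The difference in size was -0.55 ± 0.11, which passed in each of the 12 fits. POLA2, a subunit of the primase complex, differed by -0.48 ± 0.12 and passed in 1 of the 12. PRIM1, GINS4, CDC45, E2F1 and POLD3 fell in SJSA-1 without a line difference. Of 25 genes of homologous recombination and the checkpoint, 3 fell in SJSA-1 (ATRIP, BRCA1 and RAD51C), and the median difference was -0.191. ATRIP, the partner of the checkpoint kinase ATR, read 39.6 ± 4.09 (SD, n = 3) in SJSA-1 with DMSO and 25.3 ± 0.36 with 25 nM, against 41.8 ± 2.18 and 41.4 ± 1.79 in U2-OS, a difference of -0.42 ± 0.08. Of 40 mitotic genes 5 fell in SJSA-1, AURKB, CCNB1, CDC20, CDC25B and KNSTRN, and 0 had a line difference.

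Lists of signalling genes held single members with a line difference. Of 22 MAP kinase feedback genes, DUSP4, a phosphatase that switches off ERK, had one. It read 88.7, 122 and 106 in SJSA-1 with DMSO and 168, 160 and 163 with 25 nM, while the U2-OS arrays lay between 12.1 and 13.6, around the floor, and the difference was 0.60 ± 0.12. Of 20 genes of the Notch pathway, 3 rose in SJSA-1 (15%), the ligand JAG1, the target HES1 and the feedback inhibitor NRARP, and 0 fell. JAG1 read 54.2, 47.2 and 50.6 in SJSA-1 with DMSO and 103, 85.0 and 90.5 with 25 nM, and 106, 134 and 111 against 129, 125 and 135 in U2-OS, where the groups overlapped. Its difference of 0.57 ± 0.13, with 6 of 6 probe sets agreeing, passed in 3 of the 12 fits, which omitted the first DMSO array of either line or the second SJSA-1 array with 25 nM. Of 35 immediate early genes, 3 rose (ATF3, RHOB and TRIB1) and 3 fell (FOSL1, FOSL2 and GADD45A) in SJSA-1, and EGR1 alone had a line difference.

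The small nucleolar RNAs and hosts that passed in SJSA-1 split by kind. Of 48 tested, 6 (12.5%) rose there, against 1.97% of all genes. All 6 were H/ACA box RNAs of the SNORA series (SNORA3B, SNORA15, SNORA26, SNORA65, SNORA72 and SNORA84). Another 5 (10.4%) fell, against 6.28% of all genes, all of them spliced host transcripts of the SNHG series (SNHG1, SNHG7, SNHG8, SNHG12 and SNHG32). The 48 were not counted by kind, so the share within each kind is not given. SNHG8 had a mean of 864 with DMSO and 619 with 25 nM. The other members did not pass. The 2 with a line difference are SNORA3B and SNORA26, and 0 passed in U2-OS. Of 402 zinc finger genes of the ZNF series, 10 rose and 25 fell in SJSA-1, close to the shares of all genes, and 4 had a line difference. ZNF641 differed by -0.75 ± 0.13 and passed in each of the 12 fits. ZNF346 (-0.53 ± 0.13), ZNF691 (-0.39 ± 0.09) and ZNF652 (0.43 ± 0.10) passed in 3, 2 and 3 of them.

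Other lists held no line difference. They are the p53 targets (27 tested), the antiapoptotic genes (10), the proapoptotic BCL2 family (11), death receptor signalling (10), the osteoblast lineage (19), the heat shock response (16), oxidative phosphorylation (55), ribosome biogenesis (38), the ATF4 and unfolded protein response (28), YAP and TEAD targets (23), TGF-beta and BMP targets (23), osteosarcoma oncogenes and receptors (37), splicing factors (37), cholesterol synthesis (14), interferon genes (25), polyamine metabolism (13), matrix and adhesion genes (40), the 12q amplicon (15), the MYC network (13), ribosomal proteins (69) and histones (56). Within SJSA-1 some of their members passed. BAX, which permeabilizes mitochondria, fell by 0.62, and BCL2L2, a survival gene, by 0.51. The heat shock genes HSPH1, HSPA1B and CHORDC1 rose by 0.35, 0.55 and 0.40. With 3 arrays a group, the median 95% interval of a line difference reached 0.243 to each side before adjustment over all genes. The adjusted threshold asks for larger differences than this. BAX, with a line difference of -0.42 and an SE of 0.125, did not pass (limma adjusted p = 0.125). A list without a line difference can therefore still hold differences of that size.

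**Figure D5:**
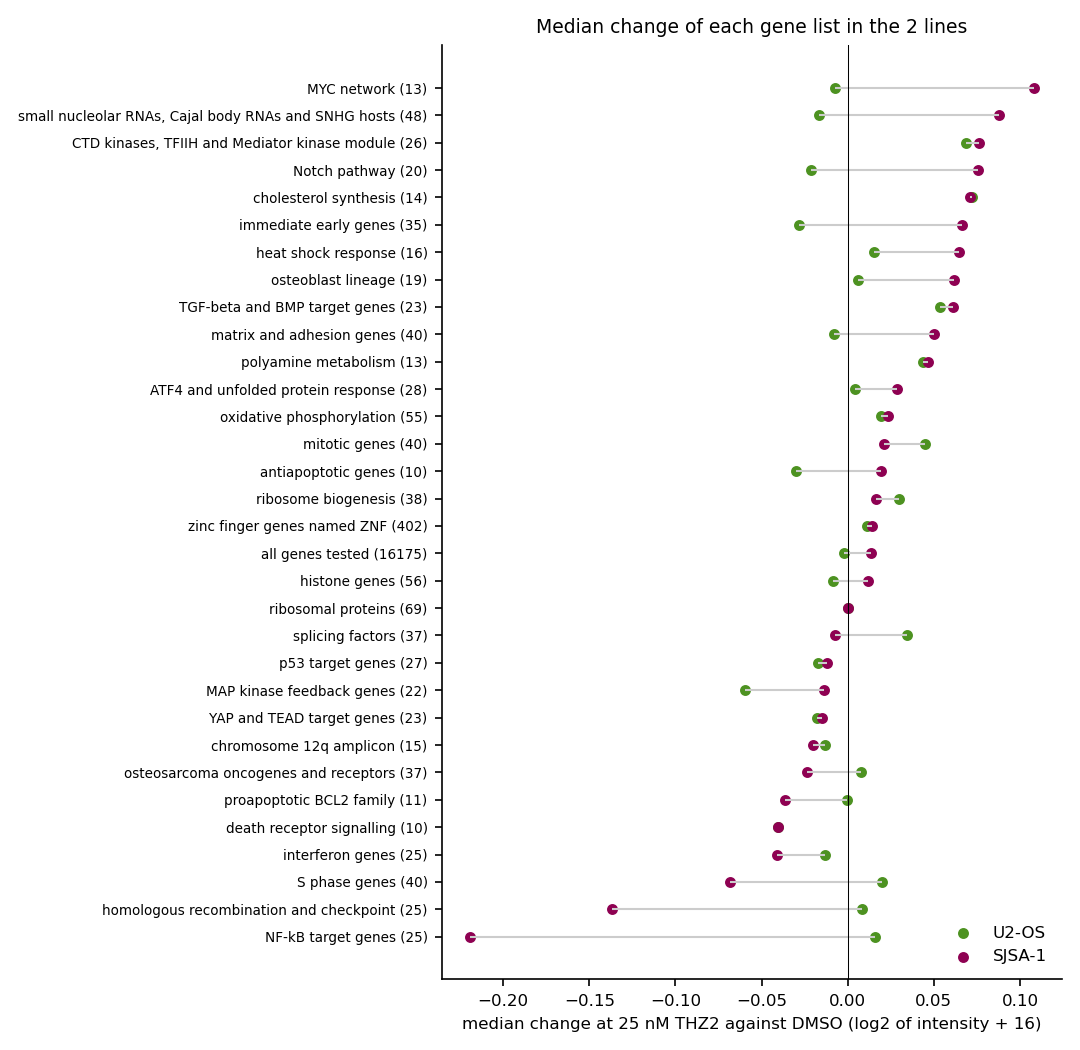
Median change with 25 nM THZ2 against DMSO of each gene list (number of genes tested in brackets) in U2-OS (green) and SJSA-1 (purple), on the log2 scale of the intensity plus 16. NF-kB targets have the lowest SJSA-1 median, -0.219, against 0.0157 in U2-OS, where some of them lie under the floor. All genes tested have medians of 0.0133 in SJSA-1 and -0.0023 in U2-OS.

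Some line differences come from genes that lay under the floor in 1 line, where no response could be read. Of the 148 lower genes 11 were under it in U2-OS and 1 was in SJSA-1, as were 4 and 2 of the 29 higher genes, which left 136 and 23 above the floor in both lines. MYPN, a sarcomere protein, read 64, 57.3 and 70.0 in SJSA-1 with DMSO and 34.1, 34.5 and 32.2 with 25 nM, and at most 4.15 in these groups of U2-OS, a difference of -0.68 ± 0.08. TLL1, a tolloid-like protease, differed by -0.57 ± 0.11, MEIOB, a meiotic DNA-binding protein, by -0.54 ± 0.11, and SLC24A3, a sodium and calcium exchanger, by -0.53 ± 0.11, whose call was lost without U2-OS 25 nM replicate 3 or SJSA-1 DMSO replicate 2 (limma adjusted p of up to 0.0656). In the other direction POFUT3 (0.66 ± 0.15), SHISA9 (0.55 ± 0.10), SIPA1L2 (0.46 ± 0.11) and AKAP19 (0.36 ± 0.07) rose in SJSA-1 and lay under the floor in U2-OS. POFUT3 passed in 4 of the 12 fits and SIPA1L2 in 2, and SHISA9 had 1 of 3 probe sets with its sign.

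The line difference at 100 nM shares the DMSO arrays with that at 25 nM, so the values are set side by side without a test between the doses. At 100 nM, 2732 genes had a line difference (16.9%), 1576 lower (9.74%) and 1156 higher (7.15%) in SJSA-1. Against DMSO, 42% of genes passed at 100 nM in U2-OS (19.8% rose, 22.2% fell) and 49.4% in SJSA-1 (24.4% rose, 25.1% fell). For ST6GALNAC5 the sign was opposite, -1.43 at 25 nM and 2.19 at 100 nM. Its SJSA-1 arrays with 100 nM read 15.0, 13.6 and 17.2, above those with 25 nM, and its U2-OS arrays read 50.7, 50.4 and 44.6, a 13.9-fold drop from DMSO. From the SJSA-1 mean of 57.6 with DMSO, a 13.9-fold drop would have ended under the floor of 12.73. Such a drop could not have been read in full in SJSA-1, so the change of sign cannot be taken as a reversal between the doses. The sign also differed for TMEM242, with -0.87 and 0.35, and for GINS1, with -0.55 and 0.50. EGR1 had 0.65 and 1.06, with U2-OS arrays of 316, 369 and 364 at 100 nM, above DMSO, where at 25 nM they were below. MYC had 0.33 and 1.81, CDK7 0.07 and -0.69, and FADD -0.51 and -1.62. NABP1 had -1.07 and -0.77, with a 5.57-fold drop in U2-OS and a 10.9-fold drop in SJSA-1 at 100 nM. SNORA3B had 1.17 and 1.13 and USP45 0.97 and 1.17.

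Gene span, from start to end with introns, was described without a test. By RefSeq coordinates the median span was 40.7 kb for the 148 lower genes and 72.1 kb for the 29 higher, against 26.4 kb for all genes tested, 24.1 kb for those that fell in SJSA-1 and 37.5 kb for those that rose there. This is a description of genes chosen by their difference.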

How the data were processed

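The authors deposited a table of linear intensity values covering 49372 probe sets. Per the submitters' processing notes MAS5 and RMA were used, without versions or roles, and which of them made these values is not given in the sources used here. The authors' scaling was kept. Probe sets naming 1 gene (44988) were used. Each gene took the value of its brightest probe set on average. A gene entered the tests if at least 1 group mean reached the floor of 12.73, the 30th percentile of all values, as 16175 of 18132 did. Values were transformed as log2 of the intensity plus 16. This understates changes of dim genes. Where the dimmer group lay under the floor, the fold is a lower bound with its arrays set to at least the floor.

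limma 3.58.1 under R 4.3.3 fitted 8 group means to the 24 arrays (empirical Bayes, intensity trend), with Benjamini-Hochberg adjustment within each contrast. With 3 arrays on each side, exact permutation reaches no two-sided p under 0.1, which is why single genes were tested by the model. Scripts were tested on simulated data. Arrays have no read depth, and their number limits the precision.

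Named genes were fixed genes, the 10 largest line differences in each direction among genes above the floor in both lines (with their sign kept under a pseudocount of 1 and median centring), the 4 largest in each direction among genes under it in 1 line, up to 3 passing members of a list in its main direction and 1 in the other, and genes that passed in both lines in the same direction without a line difference. Genes called in U2-OS, which are few, and other list members were named after their values were seen. Members and lists were chosen with earlier results of these data known. Alternatives covered centring, quantile normalization, pseudocount, filter, probe sets, the intensity trend, a replicate block, the groups fitted and leaving out each array. Array weights by line were added after seeing the data.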

Additional observations from a re-analysis of the deposited data

Results flagged for a closer look

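The effect of 25 nM THZ2 differed between U2-OS and SJSA-1 by a test of the difference itself (limma, adjusted p under 0.05) for 177 genes, and the genes among them that the naming rule selects are listed first with that difference (log2 of the intensity plus 16, SJSA-1 minus U2-OS). No explanation was tested.

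Lower in SJSA-1 and above the floor in both lines were ST6GALNAC5 (-1.43), NABP1 (-1.07), LIAT1 (-0.95), MOCS3 (-0.93), ARHGEF39 (-0.92), TMEM242 (-0.87), OXTR (-0.86), NLRC5 (-0.86), MPI (-0.77) and DET1 (-0.77). OXTR lay just above the floor in U2-OS. Under the floor in U2-OS were MYPN (-0.68), TLL1 (-0.57), MEIOB (-0.54) and SLC24A3 (-0.53). From the lists came ZNF641 (-0.75), IL1B (-0.62), GINS1 (-0.55), GTF2H1 (-0.53), NFKB2 (-0.53), ZNF346 (-0.53), POLA2 (-0.48), ATRIP (-0.42) and ZNF691 (-0.38).

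Higher in SJSA-1 were SNORA3B (1.17), KMT5B (1.04), SNORA26 (1.02), USP45 (0.97), ANKRD36 (0.88), ADAMTS16 (0.83), VPS50 (0.83), NDST1 (0.70), GDAP2 (0.69) and EGR1 (0.65). Under the floor in U2-OS were POFUT3 (0.66), SHISA9 (0.55), SIPA1L2 (0.46) and AKAP19 (0.36). From the lists came DUSP4 (0.60), JAG1 (0.57) and ZNF652 (0.43).

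Named after their values were seen were TERF2 (-0.73), ASF1B (-0.67), INTS3 (-0.60), ACOX3 (-0.59), INTS9 (-0.57), TINF2 (-0.56), SSU72 (-0.50), INTS7 (-0.47), SLC46A1 (-0.41) and CRISPLD1 (-0.41), and in the other direction ADAMTS1 (0.62), ADAMTS12 (0.53), XYLT1 (0.29) and STON1 (0.21).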

How the results depend on the processing

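No gene selected by the naming rule with a line difference changed sign under an alternative, and genes named after their values were seen were followed only through the fits that left out 1 array. The 10 largest differences in each direction were required to keep their sign with a pseudocount of 1 and with median centring. All were chosen for passing on the same arrays, so the kept signs are no support. CCNH, CDK12, CDK13, CDK4, MCL1, MDM2 and RUNX2, which had no line difference that passed, lay on both sides of 0 across alternatives without passing. Of the comparisons of a gene selected by the rule with an alternative, 1319 kept their side of the threshold, 204 lost it and 5 gained it. Against 148 genes lower in SJSA-1, there were 96 with quantile normalization within each line, 75 with it over all arrays and 92 with a pseudocount of 1. Against 29 higher, there were 45 with only the 4 groups fitted and 65 with each probe set by itself. Centring on spike-ins gave 0 lower and 0 higher, 0 in U2-OS (5 at an unadjusted p under 0.05 by limma), 7 in SJSA-1 and 59 line differences at 100 nM instead of 2732. Against 13 genes in U2-OS, there were 1 and 42 with pseudocounts of 1 and 64, 6 with a floor per line, 23 with the mean of probe sets, 20 without an intensity trend, 83 with array weights by line, 811 with its own groups alone and 23 with each probe set by itself. Against 1335 in SJSA-1, there were 811 with array weights and 539 with its own groups alone. Leaving out each array in turn gave 62 to 283 lower genes, 13 to 40 higher, 4 to 9 in U2-OS, 911 to 1885 in SJSA-1 and 2254 to 3259 at 100 nM.

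The replicate number as a block gave 134 lower and 29 higher genes, 9 in U2-OS, 1392 in SJSA-1 and 2854 line differences at 100 nM, and of the 177 genes 156 kept their call. Same-numbered arrays were not shown to be paired: their deviations correlated at -0.0269 to 0.0844 (U2-OS) and 0.084 to 0.42 (SJSA-1), and 3 of the 6 correlated best with their own number.

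The limits are 3 arrays a group, 2 lines normalized apart, a spread that differs between the lines, and log2 values of dim genes that depend on the 16 added. Averaging probe sets kept the call of 103 of the 177 genes.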

Other observations

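The gene families below stood out among the 177 genes after their values were seen, so their counts are a description. Over all genes tested, 6.28% fell and 1.97% rose in SJSA-1 at 25 nM, and 1.09% had a line difference. Of 15 tested subunits of Integrator, the complex that ends transcription of small nuclear RNAs and of paused polymerase, 4 fell in SJSA-1 at 25 nM (INTS3, INTS6, INTS7 and INTS9) and 3 had a line difference, INTS3 by -0.60 ± 0.12, INTS9 by -0.57 ± 0.14 and INTS7 by -0.47 ± 0.11. INTS3 passed in all 12 fits that left out 1 array. INTS9 passed in 1, without SJSA-1 DMSO replicate 1 (limma adjusted p of up to 0.13 in the others). INTS7 passed in 4, without U2-OS 25 nM replicate 1, SJSA-1 DMSO replicates 1 or 3, or SJSA-1 25 nM replicate 1 (up to 0.129). The other 11 did not pass in SJSA-1, and the median line difference of the 15 was -0.104. Of 6 subunits of shelterin, which caps telomeres, TERF2 fell in SJSA-1 from 114.5 to 56.6 and TINF2 from 171 to 91.4, with line differences of -0.73 ± 0.12 and -0.56 ± 0.12, with 1 of 2 probe sets of TERF2 and 4 of 4 of TINF2 agreeing, and POT1, ACD, TERF1 and TERF2IP did not pass. TERF2 passed in all 12 fits and TINF2 in 5, all of which omitted an SJSA-1 array other than DMSO replicate 3 (limma adjusted p of up to 0.0602).

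Of 17 ADAMTS proteases, which cut matrix proteins, ADAMTS1, ADAMTS12 and ADAMTS16 rose in SJSA-1 and had a line difference, 0.62 ± 0.15, 0.53 ± 0.12 and 0.83 ± 0.12. ADAMTS16 passed in all 12 fits. ADAMTS1 passed in 3, without SJSA-1 DMSO replicates 1 or 2 or SJSA-1 25 nM replicate 2 (limma adjusted p of up to 0.103). ADAMTS12 passed in 4, without U2-OS DMSO replicate 2, SJSA-1 DMSO replicates 1 or 3, or SJSA-1 25 nM replicate 1 (up to 0.116). ADAMTS12 read 204 with DMSO and 330 with 25 nM in SJSA-1. The median line difference of the 17 was 0.0406, and the other 14 did not pass, 8 of them under the floor in SJSA-1 with and without THZ2, where no change could be read.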
